A study of Mus musculus with 78 samples.

Results

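Withdrawal after 57 weeks of dichloroacetic acid (DCA) was followed in the livers of male B6C3F1 mice, a hybrid strain prone to liver tumours. The S3-57 mice drank water with 3.5 g/L DCA for 57 weeks and were sampled at the end of dosing. The S3-78 mice had the same 57 weeks of DCA, then 21 weeks of deionized water, and were sampled at 78 weeks. Control-57 and Control-78 mice drank deionized water for 57 or 78 weeks. All mice were 21 days old on arrival and had 7 days of acclimation before week 0, from which these weeks are counted. The members were the libraries of these 4 groups that also had a column in the deposited table of normalized values. They were 21 of the 68 libraries in that table and of the 78 deposited: 5 of 6 for S3-57, 4 of 6 for S3-78, and 6 of 6 for each control group.

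Each library came from the archived, formalin-fixed, paraffin-embedded liver of 1 mouse. It was read with TempO-Seq, in which pairs of detector oligos are ligated on their target RNA and then counted. The panel covered 2755 genes, of which 2205 were tested. Total counts ran from 1123317 to 2030701 in S3-57 and from 1154431 to 1936370 in S3-78. Control-57 libraries held 2223516 to 4153377 counts and Control-78 libraries 2098777 to 4285848, so every DCA library was shallower than every control library of its age. Depth and DCA therefore cannot be told apart by design.

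DCA blocks pyruvate dehydrogenase kinase and so lets more pyruvate enter the mitochondria for oxidation. It is cleared by glutathione transferase zeta (GSTZ1), the enzyme of tyrosine breakdown that DCA itself inactivates. Hepatocytes of male mice also carry a set of male-biased genes, among them the major urinary proteins, which depend on pulses of growth hormone acting through STAT5B, while female-biased genes are held low in males.

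The liver label was checked against its markers. The summed level of 9 hepatocyte markers, of which APOE, a lipoprotein component, was the most abundant, ran from 53000 to 96224 CPM (counts scaled to a common library size by TMM) in S3-57 and from 57752 to 89847 in S3-78. In the controls it ran from 68083 to 161804 at 57 weeks and from 89519 to 170394 at 78 weeks. The ranges of DCA and control mice overlapped at both ages. The median log2 fold change of these markers was -0.32 at 57 weeks and -1.06 at 78 weeks, with 1 of 9 called lower at each age, against 3.54% and 7.48% of all genes. In such bulk samples, fewer cells of a type and less RNA per cell cannot be told apart.

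Some libraries stood apart. The 15 pancreas markers on the panel, led by REG1, summed to 264 CPM in S3-57 mouse 51, 275 in S3-57 mouse 54 and 238 in S3-78 mouse 55. The other 6 DCA libraries held 14.8 to 56.4 CPM and the controls 6.64 to 35.7. The cytokine gene LTB was highest in Control-57 mouse 84, at 307 CPM, followed by S3-78 mouse 59 at 145, S3-57 mouse 54 at 52.5 and S3-78 mouse 55 at 24 CPM. The counts, and many of the calls that changed without these mice, are given beside the results. The part of pancreas and LTB signal in the results was not tested.

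The first question was whether the DCA effect differed between the end of dosing and 21 weeks later. It was answered by the withdrawal difference, the effect at 78 weeks (S3-78 against Control-78) less the effect at 57 weeks (S3-57 against Control-57). In edgeR's quasi-likelihood test 0 of 2205 genes (0%) passed an adjusted p of 0.05, and the smallest adjusted p was 0.432. At an unadjusted p under 0.05 stood 162 genes (7.35%), 90 higher (4.08%) and 72 lower (3.27%). DESeq2 called 1 gene, LTB, and limma voom called 0. The median standard error of a gene's difference was 0.76 log2. Leaving out S3-57 mouse 54 raised the count to 7, and leaving out the 3 pancreas-marker mice raised it to 15. The median of all genes was -0.01 log2 with TMM scaling, 0.13 with RLE and 0.21 with upper-quartile scaling. At 78 weeks the medians against controls were 0.07, 0.27 and 0.34.

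Compared directly, S3-78 against S3-57 gave 0 genes (0%) in edgeR's test at a fold change beyond 1.5. DESeq2 and limma voom also called 0, and 90 genes had an unadjusted p below 0.05. The 2 S3 groups were of different ages, and this comparison does not separate age from time off DCA.

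The next question was which genes differed from age-matched controls at each time. At 57 weeks of DCA 141 genes (6.39%) differed, 63 higher (2.86%) and 78 lower (3.54%). At 78 weeks, 21 weeks after the last dose, 294 genes (13.3%) differed, 129 higher (5.85%) and 165 lower (7.48%). The share of higher genes was 44.7% at 57 weeks and 43.9% at 78 weeks with TMM. It was 57.3% and 55.7% with RLE, and 54.1% and 61.7% with upper-quartile scaling, so which direction held more genes depended on the scaling. The 57-week count was 84 without S3-57 mouse 49, 55 without S3-57 mouse 51 and 75 without Control-57 mouse 83, and the 78-week count was 148 without S3-78 mouse 55. Without the 3 pancreas-marker mice the counts were 60 and 176, and without the 4 mice high in LTB, which leaves 2 S3-78 mice, the 78-week count was 23. Both settings were chosen after seeing the data. With the total count as a covariate the counts were 223 and 117. With all 78 deposited libraries the 57-week count was 12, and of the genes named here as called at 57 weeks only SULT3A1 and DPM1 kept that call.

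The lists from the 57-week and 78-week comparisons, which share no library, had 83 genes in common. These were 58.9% of the 57-week list and 28.2% of the 78-week list, and all 83 had the same sign, 35 higher and 48 lower. Of the 141 genes called at 57 weeks, 136 had the same sign at 78 weeks, called or not. The median of the 63 higher genes was 1.34 log2 at 57 weeks and 1.01 at 78 weeks, and that of the 78 lower genes was -1.26 and -1.16. Chosen at 78 weeks instead, the 129 higher genes had 1.68 at 78 weeks and 0.84 at 57 weeks, and the 165 lower genes -1.57 and -0.89. Each median lay nearer 0 at the age its genes were not chosen on. Among the 83 genes the withdrawal difference ran from -1.05 to 1.91 log2, with a median standard error of 0.47. In edgeR's test 1 gene had an unadjusted p under 0.05, against 7.35% of all genes. The 83 were selected by their calls at both ages, so this count cannot show that an effect persisted.

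**Figure D1:**
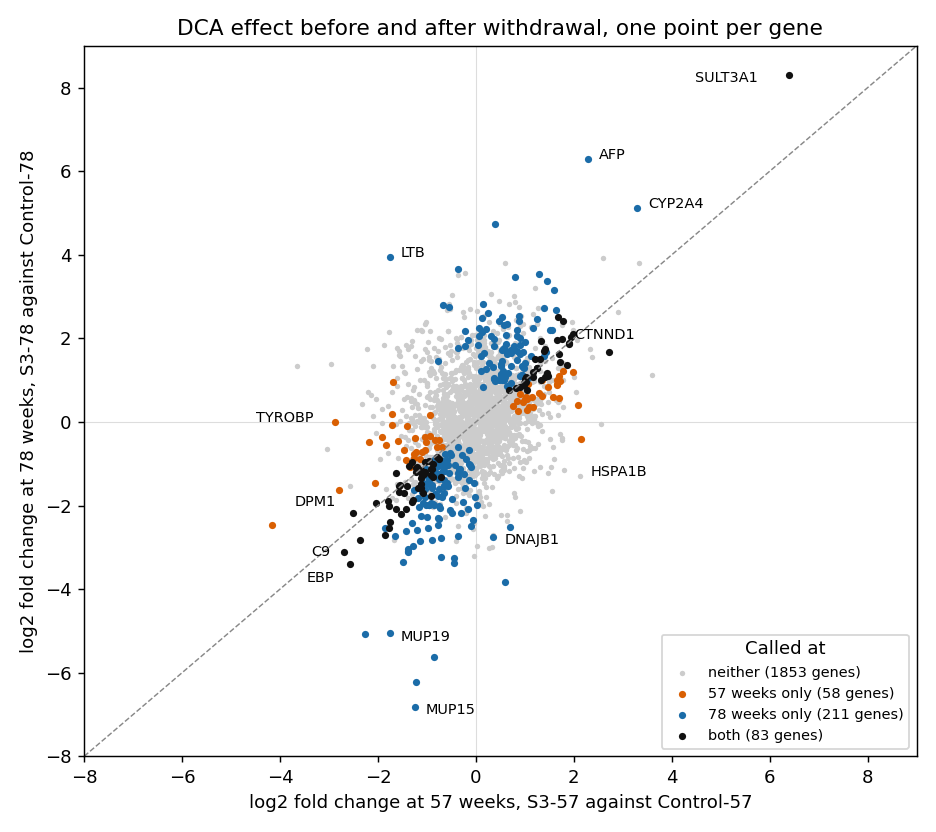
Log2 fold change against age-matched controls at 57 weeks of DCA (x axis) and 21 weeks after withdrawal (y axis), 1 point per gene of 2205. The 83 genes called at both ages have the same sign on both axes.

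CTNND1, the catenin p120 that binds cadherins at cell junctions (chr2:84600071-84650765, minus strand, GRCm38), was higher at both times. In S3-57 it stood at 3514, 2874, 9877, 2147 and 4534 CPM, and in S3-78 at 7107, 4462, 6691 and 5861 CPM. Control-57 mice held 1058 to 1658 CPM (median 1295) and Control-78 mice 903.5 to 1487 (median 1121). All 9 DCA mice lay above every control of their age. The log2 fold change was 1.78 ± 0.40 (SE, n = 5 and 6) at 57 weeks and 2.41 ± 0.42 (n = 4 and 6) at 78 weeks, with adjusted p of 0.00361 and 0.000219. Between the ages it differed by 0.63 ± 0.58, and by 0.36 to 1.26 over the alternatives. Without S3-57 mouse 51 the 57-week value of CTNND1 was 1.29, and without the 3 pancreas-marker mice 1.06, neither of them called. The call was also lost with the total count as a covariate (1.06) and with all deposited libraries (1.59).

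SDPR, which the annotation names Cavin2 and which helps shape caveolae (chr1:51289126-51302960, plus strand), stood at 76.3, 58, 174, 49.2 and 114 CPM in S3-57 and at 201, 142, 106 and 99 CPM in S3-78. Control-57 mice held 28.4 to 84.2 CPM (median 45.6) and Control-78 mice 21.7 to 50.4 (median 40.2). The 4 S3-78 mice lay above all their controls, while 3 of 5 S3-57 mice lay within the control range. The log2 fold change was 1.84 ± 0.34 at 78 weeks (adjusted p 0.000299). At 57 weeks it was 0.91 ± 0.32 and did not pass (adjusted p 0.0706), and the difference between the 2 ages was 0.93 ± 0.47, which did not pass either. With all deposited libraries the 78-week value was 1.25 and not called, and the difference was 0.43.

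EBP, a sterol isomerase of cholesterol synthesis (chrX:8185329-8193512, minus strand), was lower at both times. S3-57 mice held 11.4, 61.7, 3.43, 21.8 and 19 CPM, and S3-78 mice 7.15, 33.9, 41.9 and 17.5 CPM. The control ranges were 26.3 to 265 CPM (median 138) at 57 weeks and 59.1 to 532 (median 230.3) at 78 weeks. All S3-78 mice and 4 of 5 S3-57 mice lay below every control of their age. EBP changed by -2.58 ± 0.57 log2 at 57 weeks and by -3.40 ± 0.65 at 78 weeks. EBP was not called at 57 weeks without the pancreas-marker mice (-2.19) or with all deposited libraries (-1.54). The difference between the ages was -0.82 ± 0.78. It was -0.07 without S3-57 mouse 50 and -2.35 with all deposited libraries. Of 12 cholesterol synthesis genes tested, 1 was called lower at 57 weeks and 3 at 78 weeks, against 3.54% and 7.48% of all genes, with list medians of -0.38 and -0.84 log2.

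IRS1, the docking protein of the insulin receptor, stood at 44.1, 97.8, 27.5, 48.3 and 90.5 CPM in S3-57 and at 31.7, 45.5, 66.8 and 79.2 CPM in S3-78. Its controls ran from 51.4 to 176 CPM (median 142) and from 71.6 to 177 (median 129), and the ranges overlapped at both ages. Against its controls IRS1 was -1.04 ± 0.35 log2 at 57 weeks, short of the threshold, and -1.21 ± 0.39 at 78 weeks, where it was called. That call was lost without S3-78 mouse 55 (-1.01) or 56 (-1.06) and without Control-78 mouse 86 (-1.10) or 88 (-1.12). It was also lost with RLE (-0.996), upper-quartile scaling (-0.95), all deposited libraries (-1.06), a fit to the compared groups alone (-1.22) and the total count as a covariate (-0.98), and without the pancreas-marker mice (-1.03) or the mice high in LTB (-1.07). The withdrawal difference was -0.17 ± 0.51. Its sign turned without S3-57 mouse 50 or 54, S3-78 mouse 55 or 56, or Control-57 mouse 84, where it lay between 0.0025 and 0.059. Of 10 genes of glucose, glycogen and insulin signalling tested, 1 was called at 78 weeks and 0 at 57 weeks, against 13.3% and 6.39% of all genes.

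GSTZ1 (chr12:87147165-87164723, plus strand) stood at 7304, 9018, 10305, 5312 and 6082 CPM in S3-57 and at 10633, 9128, 5045 and 7728 CPM in S3-78. Controls ran from 4701 to 11597 CPM at 57 weeks (median 7665) and from 4511 to 9943 at 78 weeks (median 6874). DCA and control mice overlapped at both ages. The log2 fold change was -0.09 (95% interval -0.79 to 0.61) at 57 weeks and 0.21 (-0.53 to 0.95) at 78 weeks. TempO-Seq reads RNA and not the enzyme. Of 9 genes of tyrosine and amino acid catabolism, 0 were called at either age, against 6.39% and 13.3% of all genes.

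The other genes with the largest effects shared by both times were SULT3A1, C9, C8B and DPM1. SULT3A1, a sulfotransferase (chr10:33857721-33879532, plus strand), held 7.27, 0, 1002, 11.8 and 8.26 CPM in S3-57 and 971, 29.5, 4.77 and 12.2 CPM in S3-78. Its controls held 0.53 to 5.17 CPM at 57 weeks (median 2.18) and 0 to 1.39 at 78 weeks (median 0.78). S3-57 mouse 51 and S3-78 mouse 55 were far above the rest, and 4 of 5 and 4 of 4 DCA mice lay above every control. The log2 fold change was 6.39 ± 1.36 at 57 weeks and 8.30 ± 1.52 at 78 weeks. Without mouse 51 the 57-week value was 1.49 and not called, and without mouse 55 the 78-week value was 4.28 and still called. Without the mice high in LTB it was 4.67 and not called. The 57-week call was also lost with limma voom (2.35), with the total count as a covariate (3.66) and without the pancreas-marker mice (1.33). The difference between the ages, 1.91 ± 1.78, was -2.10 without mouse 55.

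C9 (chr15:6445327-6498751, plus strand) and C8B (chr4:104766317-104804548, plus strand) encode parts of the pore of complement. C9 held 3671, 6775, 1095, 4026 and 4233 CPM in S3-57, and 485, 3573, 4512 and 5429 CPM in S3-78. The controls held 7577 to 47429 CPM (median 21571) and 14362 to 62918 (median 27905), above all 9 DCA mice. C9 changed by -2.69 ± 0.71 log2 at 57 weeks and by -3.12 ± 0.80 at 78 weeks, and C8B by -2.37 ± 0.64 and -2.83 ± 0.72. The 57-week calls were lost without S3-57 mouse 51 (C9 -2.45, C8B -2.14), and that of C8B also without mouse 49 (-2.24). Both were also lost with all deposited libraries (C9 -1.91, C8B -2.22) and without the pancreas-marker mice (-2.44 and -2.30). With the total count as a covariate C8B was not called at 57 weeks (-1.92) or at 78 weeks (-2.16). Without the mice high in LTB the 78-week values, -2.79 for C9 and -2.04 for C8B, were not called. Of 16 complement genes tested, 2 were called lower at 57 weeks and 3 at 78 weeks, against 3.54% and 7.48% of all genes, and C9 and C8B were the 2 called at both times, against 83 of all 2205 genes. The list median was -0.16 at 57 weeks and -0.38 at 78 weeks.

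DPM1, a subunit of the enzyme that makes dolichol phosphate mannose for glycosylation (chr2:168209048-168230591, minus strand), held 133, 292, 96.8, 157 and 314 CPM in S3-57. In S3-78 it held 111, 229, 512 and 218 CPM. The controls ran from 351 to 2057 CPM (median 1075) and from 448 to 3010 (median 996), with S3-78 mouse 59 alone inside the range of its age. DPM1 changed by -2.52 ± 0.41 log2 at 57 weeks and by -2.17 ± 0.44 at 78 weeks. The difference of 0.35 ± 0.56 was -0.18 without mouse 59.

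Further genes called at both times were chosen after their values were seen. NDUFB5 and NDUFA9, subunits of respiratory complex I, were -1.86 and -1.13 log2 at 57 weeks and -2.69 and -1.35 at 78 weeks. Among 18 oxidative phosphorylation genes tested, 3 were called lower and 1 higher at 57 weeks, and 3 lower at 78 weeks, against 3.54%, 2.86% and 7.48% of all genes. APOE, carried on lipoproteins, was -1.11 and -1.16. The flavin monooxygenase FMO5 was -1.57 and -1.67, the peroxide-reducing enzyme PRDX1 -1.11 and -1.48, and the endoplasmic reticulum chaperone CANX -1.09 and -1.27. ILF2, a double-stranded RNA binding protein, was 1.91 and 1.89. In each of APOE, FMO5, PRDX1 and CANX all 9 DCA mice lay below every control of their age, and for ILF2 all 9 lay above. APOE and PRDX1 were not called at 57 weeks without the pancreas-marker mice (-1.12 and -1.16), nor at 78 weeks without the mice high in LTB (-1.03 and -1.37), where NDUFA9 (-1.28) was not called either. With all deposited libraries none of the 7 was called at 57 weeks (NDUFB5 -2.07, NDUFA9 -0.72, FMO5 -1.84, APOE -1.17, CANX -1.35, PRDX1 -1.38, ILF2 1.67), and NDUFA9 was not called at 78 weeks (-0.96). In a fit to the compared groups alone APOE was called at neither age (-1.09 and -1.17). With the total count as a covariate PRDX1 was not called at 57 weeks (-0.80) and APOE not at 78 weeks (-1.02). Of 23 phase II conjugation genes tested, 3 were called lower and 1 higher at 57 weeks, and 8 lower and 1 higher at 78 weeks. Of all genes, 3.54% and 7.48% were lower, and 2.86% and 5.85% higher.

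**Figure D2:**
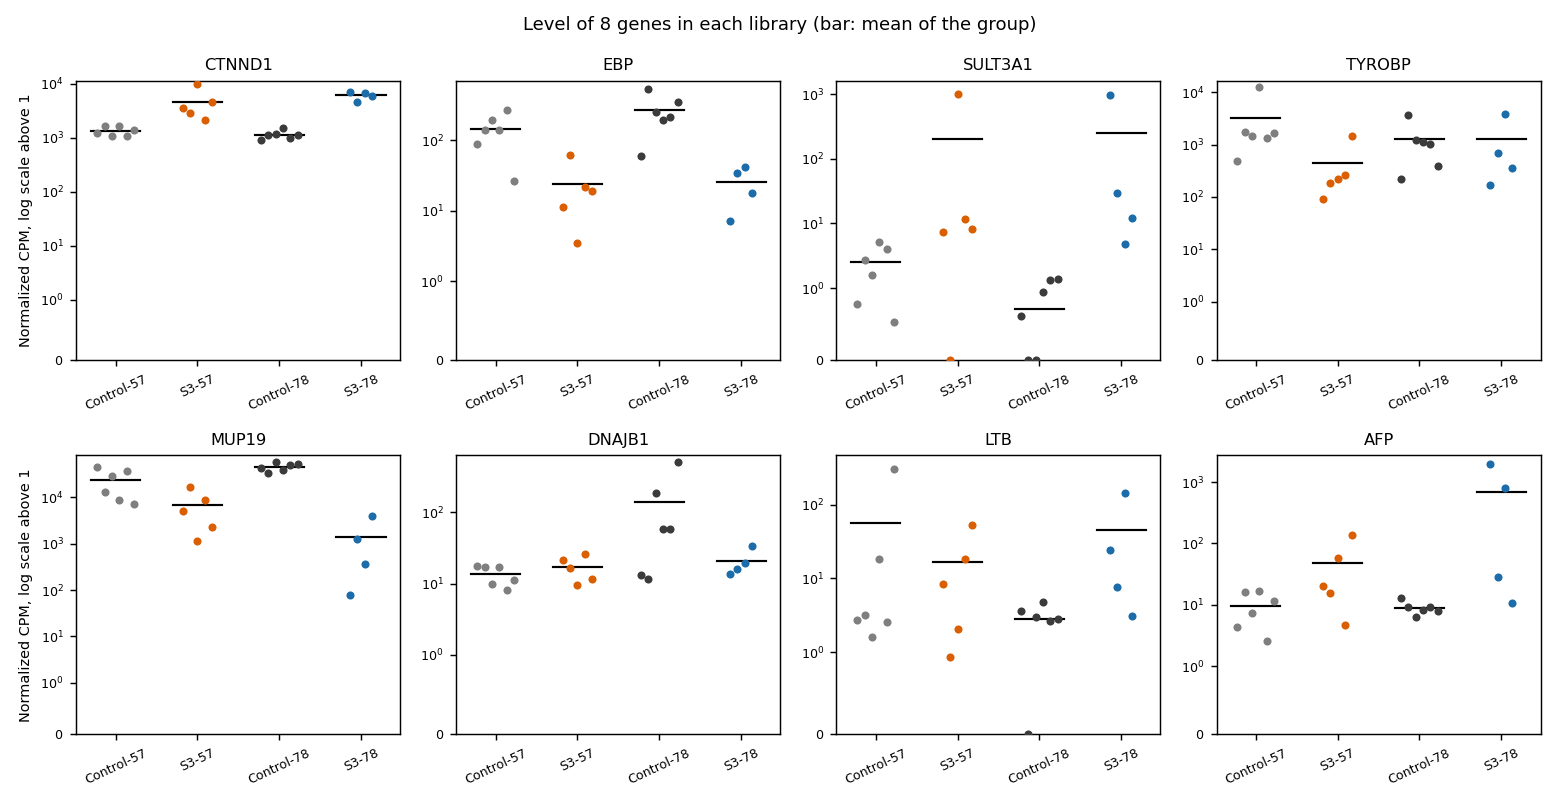
Normalized level (CPM, log axis) of named genes in each mouse of Control-57, S3-57, Control-78 and S3-78. CTNND1 lies above every control in all 9 DCA mice, and EBP lies below every Control-78 mouse in all 4 S3-78 mice.

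Of the 141 genes called at 57 weeks, 58 were not called at 78 weeks. Of these, 53 had the same sign at 78 weeks, and 22 lay within 0.5 log2 of 0. ANXA5, VIM and TYROBP were singled out from them after their values were seen. ANXA5, which binds phosphatidylserine, held 35.8, 51.9, 89.3, 77.6 and 155 CPM in S3-57, below the Control-57 range of 192 to 432 (median 256). In S3-78 it held 28.1, 124, 489 and 87.6 CPM, across the Control-78 range of 99.4 to 399 (median 156). ANXA5 was -1.72 ± 0.41 log2 at 57 weeks and -0.06 ± 0.42 at 78 weeks. The withdrawal difference was 1.66 ± 0.58, with an unadjusted p of 0.00549 and an adjusted p of 0.578. It was 0.47 without S3-78 mouse 59. Without the 3 pancreas-marker mice it was 2.64 and called. The 57-week call of ANXA5 was lost with all deposited libraries (-1.62).

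VIM, an intermediate filament of mesenchymal cells, was -1.41 ± 0.40 at 57 weeks and -0.10 ± 0.41 at 78 weeks. From 57 to 78 weeks VIM changed by 0.23 ± 0.43 in the S3 mice and by -1.07 ± 0.37 in the controls, neither called. Its 57-week call was lost without S3-57 mouse 50 (-1.17) or 53 (-1.36), with all deposited libraries (-1.65), with the compared groups alone (-1.38) and with detected genes as a covariate (-1.28). TYROBP, a signalling adaptor of macrophages, held 90.4, 185, 221, 266 and 1435 CPM in S3-57 and 166, 701, 3860 and 359 CPM in S3-78. Control-57 mice held 484 to 12747 CPM (median 1531) and Control-78 mice 217 to 3662 (median 1071). S3-57 mouse 54, S3-78 mouse 59 and Control-57 mouse 82 were the highest of their groups. TYROBP was -2.88 ± 0.71 at 57 weeks and 0.00 ± 0.68 at 78 weeks, and the 57-week call was lost without mouse 82 (-1.58), with all deposited libraries (-2.15) and with the compared groups alone (-2.83).

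No gene of any list passed the test of the difference, and lists were not tested against each other. Against a median of -0.01 for all 2205 genes, the median withdrawal difference was -1.57 for 14 immediate-early genes, -1.13 for 16 genes of the unfolded protein response, -0.82 for 11 heat shock genes and -0.86 for 13 male-biased genes. It was 1.87 for 6 female-biased genes, 0.89 for 24 collagens and matrix genes, 0.94 for 9 macrophage markers and 1.31 for 9 stellate cell markers. It was -0.97 for 18 acute phase genes, -0.93 for 5 clock genes and -0.66 for 9 hepatocyte markers. Among markers of other tissues it was 0.88 for 6 pancreas markers, whose median was 1.28 at 57 weeks and 2.63 at 78 weeks with 0 called, and 0.95 for 4 markers of adipose, muscle and nerve. These 13 medians of the difference kept their sign under RLE and upper-quartile scaling. For the immediate-early genes, the unfolded protein response and the heat shock genes the median change was 0.54, -0.11 and -0.10 in the S3 mice and 1.69, 0.86 and 1.00 in the controls.

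**Figure D3:**
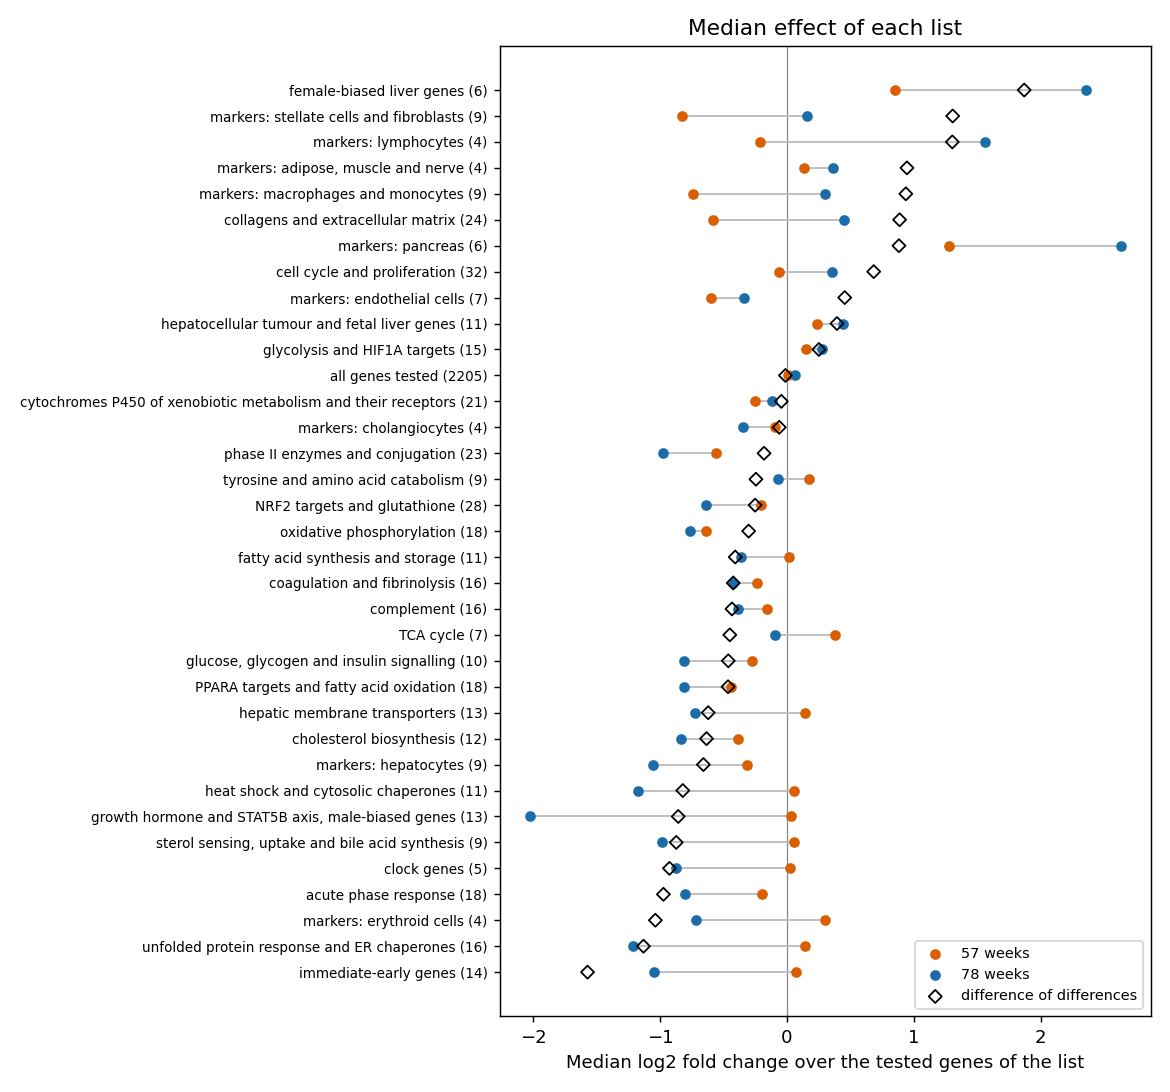
Median log2 fold change of each gene list against age-matched controls at 57 weeks of DCA and 21 weeks after withdrawal, with the list's number of tested genes. The 13 male-biased genes have medians of 0.03 and -2.03, and the 6 female-biased genes 0.85 and 2.36. No gene of either list passed the test of the difference.

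Among the male-biased genes more were called lower at 78 weeks than at 57 weeks, but none passed the test of the difference or of S3-78 against S3-57. Of 13 tested, 0 were called at 57 weeks and 6 were called lower at 78 weeks, against 7.48% of all genes, and the list median was 0.03 and -2.03 log2. Their summed level was 15914, 46817, 8765, 22877 and 12693 CPM in S3-57 and 5303, 9416, 6519 and 16210 CPM in S3-78. Control-57 mice held 28450 to 82019 CPM (median 49718) and Control-78 mice 66840 to 108205 (median 91571). All 4 S3-78 mice lay below every control of their age, and so did 4 of 5 S3-57 mice at 57 weeks, with mouse 50 within its control range. The 9 hepatocyte markers, whose sums are given above, had medians of -0.32 at 57 weeks and -1.06 at 78 weeks. MUP19 was the most abundant member.

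MUP19, a major urinary protein (chr4:61778324-61782269, minus strand), held 5131, 17178, 1127, 8836 and 2327 CPM in S3-57 and 77.6, 1243, 360 and 3903 CPM in S3-78. Control-57 mice held 7196 to 44842 CPM (median 21163) and Control-78 mice 34176 to 58173 (median 46746). The groups overlapped at 57 weeks and not at 78 weeks. Against its controls MUP19 was -1.76 ± 1.01 log2 at 57 weeks, not called, and -5.06 ± 1.31 at 78 weeks (adjusted p 0.00657). The withdrawal difference was -3.30 ± 1.47, with an unadjusted p of 0.0287 and an adjusted p of 0.666. MUP15 was -1.25 and -6.82, with a difference of -5.57 ± 1.92, and MUP3 was -1.39 and -3.11, both called at 78 weeks. Without the mice high in LTB none of the 3 was called at 78 weeks (MUP19 -4.19, MUP15 -6.01, MUP3 -2.22). With the total count as a covariate none of them was called either (-4.07, -3.92 and -2.49), and MUP15 was not called with limma voom (-7.60). The major urinary protein genes are near-identical copies, so the values of single members are uncertain.

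CYP2D9, a male-biased steroid hydroxylase, was -1.17 ± 0.51 at 57 weeks and -2.03 ± 0.57 at 78 weeks, where its call was lost without S3-78 mouse 55 (-1.68), the pancreas-marker mice (-1.70) or the mice high in LTB (-1.45), and with all deposited libraries (-1.48). The glutathione transferase GSTP1 was -1.19 ± 0.46 and -2.57 ± 0.53, called at 78 weeks, with a difference of -1.38 ± 0.66. Without the mice high in LTB its 78-week value of -2.60 was not called, nor was that of -1.71 with the total count as a covariate. Of the 13 male-biased genes, 5 had an unadjusted p under 0.05 in the withdrawal difference, all lower, against 3.27% of all genes, and 11 of 13 lay below 0, against 1115 of all 2205 genes. These genes were chosen after their values were seen.

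Of 6 female-biased genes tested, 1 was called higher at 57 weeks and 3 at 78 weeks, against 2.86% and 5.85% of all genes. The summed level of the 11 on the panel was 784, 1848, 7643, 1633 and 674 CPM in S3-57 and 9451, 1257, 1614 and 222 CPM in S3-78. The controls held 399 to 2438 CPM (median 1383) and 353 to 2667 (median 789). S3-57 mouse 51 and S3-78 mouse 55 were above their controls, and no other DCA mouse was. CYP2A4, a steroid hydroxylase whose copy CYP2A5 is nearly identical, held 104, 41.2, 2227, 46.9 and 114 CPM in S3-57 and 3651, 127, 1246 and 54.1 CPM in S3-78. Its controls held 36.7 to 74.8 CPM (median 49.7) and 10.8 to 69.3 (median 29.1). S3-57 mouse 51 and S3-78 mice 55 and 59 were the high ones, and the groups overlapped at both ages. CYP2A4 was 3.30 ± 1.16 at 57 weeks, not called, and 5.13 ± 1.28 at 78 weeks, where the call was lost without mouse 55 (3.72), without the mice high in LTB (1.30) or with the total count as a covariate (3.42). CYP17A1, which makes androgen precursors, was 1.45 ± 0.91 and 3.38 ± 0.99, the latter called. Without mouse 55 it was 0.49 at 78 weeks and not called, and its difference of 1.92 was -0.96. The 78-week call was also lost with the compared groups alone (3.37), limma voom (1.30), the total count as a covariate (2.81), without the pancreas-marker mice (0.53) and without the mice high in LTB (-1.50). Mouse 55 and mouse 51 were also 2 of the 3 mice high in pancreas markers.

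The controls themselves changed between 57 and 78 weeks, and this change enters the withdrawal difference. In Control-78 against Control-57, 11 genes (0.499%) were called, 9 higher and 2 lower (81.8% higher, 66.7% with RLE and 100% with upper-quartile scaling). The 9 were DNAJB1, HSPA1B, HSPH1, BAG3, HSPA5, CRELD2, EGR1, TRIB1 and CHKA, and the 2 lower were LTB and CYBB. The first 4 are heat shock chaperones or their partners, HSPA5 and CRELD2 belong to the unfolded protein response, and EGR1 is an immediate-early factor. TRIB1 is a pseudokinase, CHKA a choline kinase, and CYBB a subunit of the phagocyte oxidase.

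DNAJB1 (chr8:83608193-83612653, plus strand) held 13.1, 11.7, 190.1, 57.9, 58.2 and 513 CPM in Control-78 mice 85 to 90, against 8.15 to 17.6 in Control-57 (median 14.1). It held 21.8, 16.8, 9.61, 26.5 and 11.6 CPM in S3-57 and 13.8, 16, 19.6 and 34.3 CPM in S3-78. Control-78 mice 87 to 90 were high, while mice 85 and 86 lay among the other groups. DNAJB1 rose by 3.38 ± 0.58 log2 between the control ages (adjusted p 0.000518). S3-78 against Control-78 was -2.76 ± 0.67 and called, S3-57 against Control-57 was 0.36 ± 0.57, and S3-78 against S3-57 was 0.27 ± 0.63. The withdrawal difference was -3.12 ± 0.85, with an unadjusted p of 0.000539 and an adjusted p of 0.432. Without Control-78 mouse 90 that difference was -2.03.

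These calls changed with single controls and with the method. The rise of DNAJB1 was not called with limma voom (2.42) or with the compared groups alone (3.38), and neither were the 78-week values of DNAJB1 (-1.83 and -2.78) and TRIB1 (-0.89 and -2.19). Without Control-78 mouse 90 the rise of DNAJB1 was 2.30 and its 78-week value -1.67, neither called. Without the mice high in LTB the 78-week values of DNAJB1 (-2.52) and TRIB1 (-2.45) were not called. The count of 11 was 3 with RLE, 1 with upper-quartile scaling, 2 with all deposited libraries, 3 with the total count as a covariate, 0 with limma voom, 0 with the compared groups alone and 19 with DESeq2. It was 5 without Control-57 mouse 79, 2 without 80, 3 without 81, 1 without 82, 2 without 83 and 1 without 84, and 4 without Control-78 mouse 87, 6 without 88, 3 without 89 and 0 without 90. TRIB1, at 19277 CPM in mouse 90, was -2.18 at 78 weeks and called, and -0.23 without that mouse.

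The summed level of 12 heat shock genes, led by HSP90AA1, was 4455, 5740, 3049, 4169 and 3278 CPM in S3-57 and 2740, 3215, 3425 and 4299 CPM in S3-78. Control-57 mice held 3197 to 5285 CPM (median 4789) and Control-78 mice 4575 to 10257 (median 7761). The 4 S3-78 mice lay below every control of their age, and the 57-week groups overlapped. Of 11 tested, 3 were called lower at 78 weeks and 0 at 57 weeks, and 6 had an unadjusted p under 0.05 in the difference, all lower. Of all genes, 7.48% and 3.54% were called lower at 78 and 57 weeks, and 3.27% were lower at that p in the difference. HSP90AA1 was -0.74 ± 0.32 against its controls at 57 weeks and -2.05 ± 0.36 at 78 weeks (adjusted p 0.000219), with a difference of -1.31 ± 0.46. From 57 to 78 weeks it changed by -0.30 ± 0.35 in the S3 mice and by 1.00 ± 0.30 in the controls, neither called. HSPA1B, whose copy HSPA1A is nearly identical, was 2.13 ± 0.72 at 57 weeks and -1.29 ± 0.78 at 78 weeks. All 5 S3-57 mice lay above every Control-57 mouse in HSPA1B. HSPH1 was 0.67 and -1.17, and BAG3 0.76 and -0.86, with none of these 3 genes called at either age. The differences were -3.41 ± 1.07 for HSPA1B, -1.84 ± 0.69 for HSPH1 and -1.62 ± 0.58 for BAG3. None of these differences passed.

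Of 16 genes of the unfolded protein response, 14 had a difference below 0, against 1115 of all 2205 genes. At 57 weeks 1 was called lower, and at 78 weeks 3 were called lower and 1 higher, against 3.54%, 7.48% and 5.85% of all genes. CRELD2, a secreted factor of the endoplasmic reticulum, had -2.70 ± 0.82 and HSPA5, its main chaperone BiP, -1.34 ± 0.63. The immediate-early genes EGR1 and FOS had -3.28 ± 1.65 and -2.52 ± 1.26, and -1.87 and -0.83 with limma voom. EGR1 was -1.75 without Control-78 mouse 90 and -5.985 without the 4 mice high in LTB. In Control-78, FOS stood at 1126 and 966 CPM in mice 89 and 90 and at 60.7 CPM or less in the other 4.

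**Figure D4:**
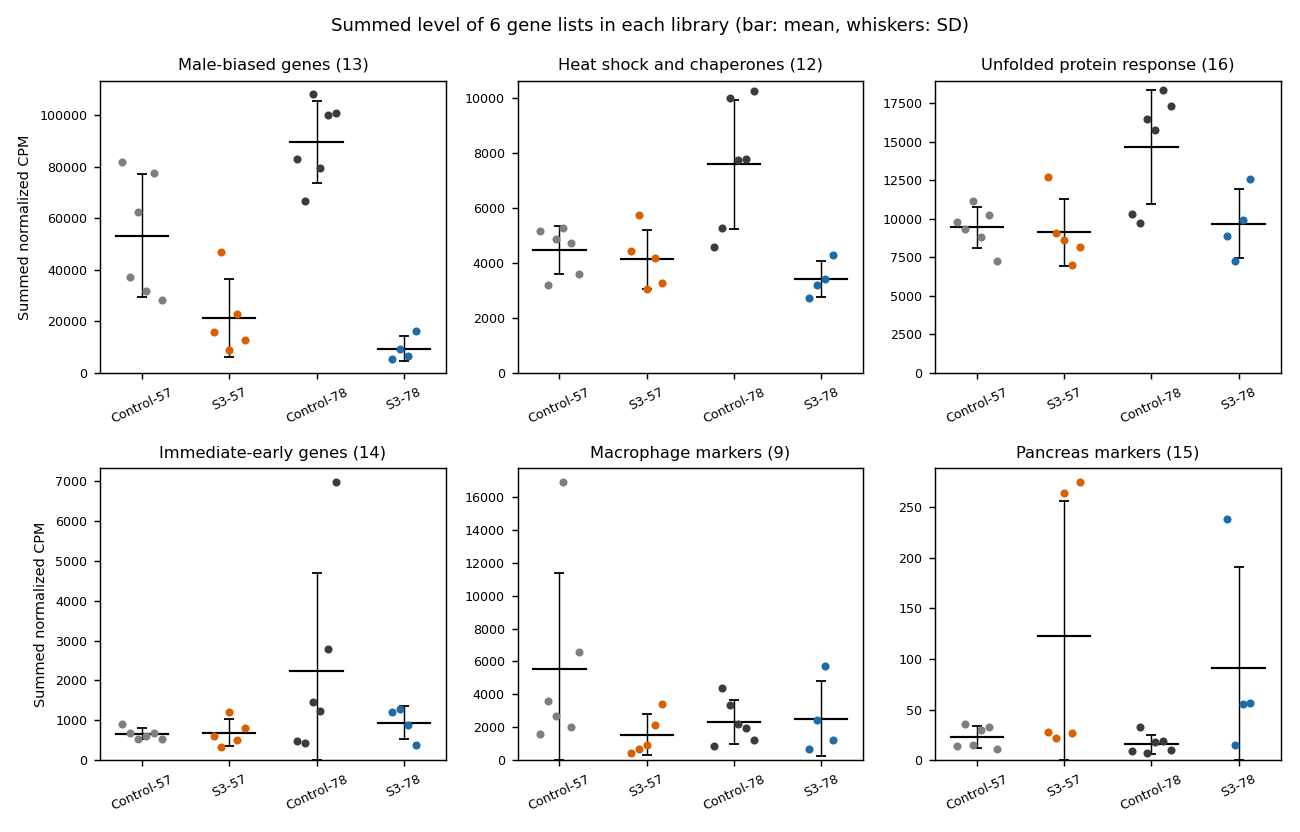
Summed level (CPM, linear axis) of gene lists in each mouse of the 4 groups. Heat shock genes reach 7742 to 10257 CPM in Control-78 mice 87 to 90, and the male-biased genes lie between 5303 and 16210 CPM in S3-78.

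Since 4 heat shock and 2 unfolded protein response genes were among the 9 called higher in the older controls, their promoters were read for the letters of known elements, from RefSeq on build GRCm38.p6. Whether the genes moved jointly was not tested. The heat shock element core, GAANNTTC, reads the same on both strands and was present in 2582 of 32851 promoters (7.86%). The element of the endoplasmic reticulum stress response, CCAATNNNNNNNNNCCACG on either strand, was present in 39 (0.119%). HSPA1B, HSPH1 and BAG3 each held 1 heat shock core, and both entries of DNAJB1 held 0. CRELD2 and HSPA5 each held 1 stress response element. Shown with the element in capitals are HSPA1B (chr17:34959189-34959488, minus strand), CRELD2 (chr15:88819396-88819695, plus strand) and HSPA5 (chr2:34771840-34772139, plus strand). A match is a description and not a measured site.
HSPA1B: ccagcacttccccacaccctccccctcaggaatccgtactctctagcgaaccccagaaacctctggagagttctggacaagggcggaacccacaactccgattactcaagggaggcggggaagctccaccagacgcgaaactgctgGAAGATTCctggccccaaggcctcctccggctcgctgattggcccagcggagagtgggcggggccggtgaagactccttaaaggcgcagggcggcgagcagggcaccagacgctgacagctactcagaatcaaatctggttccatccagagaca
CRELD2: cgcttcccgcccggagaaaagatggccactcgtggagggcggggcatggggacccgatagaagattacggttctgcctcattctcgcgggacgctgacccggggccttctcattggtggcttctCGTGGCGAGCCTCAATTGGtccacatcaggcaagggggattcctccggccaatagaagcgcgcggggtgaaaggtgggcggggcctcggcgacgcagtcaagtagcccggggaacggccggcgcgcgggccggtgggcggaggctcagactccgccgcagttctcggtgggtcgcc
HSPA5: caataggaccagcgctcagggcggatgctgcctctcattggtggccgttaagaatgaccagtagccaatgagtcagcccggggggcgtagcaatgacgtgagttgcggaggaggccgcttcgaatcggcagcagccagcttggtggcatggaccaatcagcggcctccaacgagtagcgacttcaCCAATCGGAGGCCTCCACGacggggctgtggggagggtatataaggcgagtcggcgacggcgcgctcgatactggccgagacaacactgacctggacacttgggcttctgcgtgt

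LTB, CD74, CXCL10, NRROS, PRKCH, CBR3, COL1A1 and TGFBR2 were chosen after their differences, all above 0, were seen. None of these differences passed edgeR's test with all mice, and the genes were not tested as a group. LTB, a cytokine of lymphocytes (chr17:35194439-35196320, plus strand), held 8.31, 0.94, 2.06, 18.5 and 52.5 CPM in S3-57 and 24, 7.59, 145 and 3.05 CPM in S3-78. Control-57 mice held 1.61 to 307 CPM (median 2.97) and Control-78 mice 0 to 4.75 (median 2.90). S3-78 mice 55, 56 and 59 lay above their controls, while Control-57 mouse 84 lay above every S3-57 mouse. LTB was -1.76 ± 0.99 log2 at 57 weeks and 3.94 ± 1.08 at 78 weeks, the latter called, and 1.99 and not called without mouse 59. It was not called either with limma voom (2.79). The withdrawal difference was 5.70 ± 1.48, with an unadjusted p of 0.000287 and an adjusted p of 0.432. It was 2.57 without Control-57 mouse 84, 3.75 without S3-78 mouse 59 and 3.26 with limma voom, none of them called, and 6.16 with DESeq2, which called it. Without the 4 mice high in LTB, which were picked by this gene, it was 0.49.

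CD74, the invariant chain of antigen presentation, had a difference of 3.27 ± 1.02, the chemokine CXCL10 3.92 ± 1.38, NRROS of macrophages 2.66 ± 0.73 and the kinase PRKCH 2.22 ± 0.69. The carbonyl reductase CBR3 had 3.45 ± 1.03. None of these passed with all mice. From 57 to 78 weeks CXCL10 changed by 0.86 ± 1.02 in the S3 mice and by -3.06 ± 0.95 in the controls. For CD74 these changes were 1.22 ± 0.76 and -2.05 ± 0.68, and for NRROS 1.32 ± 0.55 and -1.35 ± 0.48. They were 1.34 ± 0.52 and -0.88 ± 0.45 for PRKCH, and 1.85 ± 0.77 and -1.60 ± 0.68 for CBR3. EdgeR called none of these changes. Control-57 mice 82 and 84 held 1384 and 1269 CPM of CXCL10 (group median 44.5), and 22777 and 9473 of CD74 (median 2383). Without S3-57 mouse 54, 7 genes passed, all higher. They were LTB at 6.89, CXCL10 at 5.90, CD74 at 4.72, CBR3 at 4.63, TYROBP at 4.14, NRROS at 3.24 and PRKCH at 2.94. Without S3-78 mouse 59 none passed, and the values were lower, with 0.85 for CXCL10, 1.39 for CD74, 1.80 for CBR3, 1.24 for TYROBP, 1.73 for NRROS and 1.18 for PRKCH. TYROBP was 1.60 without Control-57 mouse 82. Without the 3 pancreas-marker mice, 51, 54 and 55, 15 genes passed, 14 higher, these 7 and ANXA5 (2.64) among them, and CRELD2 (-3.45) lower. That setting was chosen after seeing the data and leaves 3 mice in each S3 group.

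Marker lists of cell types lay on both sides of 0 in the withdrawal difference, and no marker passed the test. All 9 macrophage markers, led by TYROBP, had a difference above 0, with a median of 0.94, and 2 had an unadjusted p under 0.05. Of all 2205 genes 1090 lay above 0, and 4.08% were higher at that p. The median change from 57 to 78 weeks was -0.03 log2 in the S3 mice and -0.92 in the controls. For TYROBP that change was 1.53 ± 0.71 in the S3 mice and -1.35 ± 0.62 in the controls, neither called. The summed level of the 9 was 454, 707, 919, 2137 and 3436 CPM in S3-57 and 685, 2413, 5751 and 1196 CPM in S3-78. Control-57 mice held 1574 to 16889 CPM (median 3120) and Control-78 mice 857 to 4394 (median 2075). S3-57 mouse 54 and S3-78 mouse 59 were the highest DCA mice, and the groups overlapped at both ages. Of 9 stellate cell and fibroblast markers, led by VIM, 8 had a difference above 0, and the median change was 0.23 in the S3 mice and -0.68 in the controls. The median difference was 1.30 for 4 lymphocyte markers, -0.06 for 4 cholangiocyte markers (above 0 with RLE and upper-quartile scaling) and -1.04 for 4 erythroid markers. The part of such cells in the results was not tested.

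COL1A1, the main fibrillar collagen, had a difference of 2.37 ± 0.86 and TGFBR2, a receptor for transforming growth factor beta, of 2.13 ± 0.71. TGFBR2 was 1.96 ± 0.51 at 78 weeks and called, and 1.52 and not called without S3-78 mouse 59, as also without the mice high in LTB (0.60) or with the total count as a covariate (1.68). Of 24 collagens and matrix genes tested, 19 had a difference above 0, against 1090 of all 2205, 5 of them at an unadjusted p under 0.05, against 4.08% of all genes. At 78 weeks 2 were called higher and 1 lower, against 5.85% and 7.48% of all genes, and at 57 weeks 0.

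AFP, alpha-fetoprotein of fetal liver and liver tumours (chr5:90490737-90508907, plus strand), held 20.3, 15.4, 57.7, 4.73 and 137 CPM in S3-57 and 1952, 28.7, 814 and 10.7 CPM in S3-78. Control-57 mice held 2.59 to 16.6 CPM (median 9.27) and Control-78 mice 6.34 to 12.8 (median 8.62). S3-78 mice 55 and 59 were far above the rest, mouse 56 also lay above its controls and mouse 60 lay among them. AFP was 2.29 ± 1.11 log2 at 57 weeks, not called, and 6.29 ± 1.30 at 78 weeks (adjusted p 0.000904). Without the 4 mice high in LTB the 78-week value was 1.11, and with the total count as a covariate 4.75, neither called. The difference was 4.00 ± 1.62, with an unadjusted p of 0.0163, and was -0.24 without those 4 mice, which include both mice high in AFP. It was 2.45 with limma voom.

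CCND1, the cyclin of entry into the cell cycle, was 0.13 ± 0.56 at 57 weeks and 2.48 ± 0.60 at 78 weeks, the latter called. It stood at 390 CPM in S3-78 mouse 59, and without that mouse was 0.62 and not called. With the total count as a covariate it was 1.74, and without the mice high in LTB 0.36, neither called. TRIB3, a stress-induced pseudokinase, was 0.15 ± 0.70 and 2.82 ± 0.76, called at 78 weeks, with 545, 315, 598 and 71.6 CPM in S3-78 against 21.2 to 90.1 in Control-78. It was 1.79 and not called without the mice high in LTB, and 2.02 and not called with the total count as a covariate. Of 32 cell cycle genes tested, 2 were called higher at 78 weeks, near the 5.85% of all genes, and 0 at 57 weeks, and the list medians were -0.06 and 0.35 log2.

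**Figure D5:**
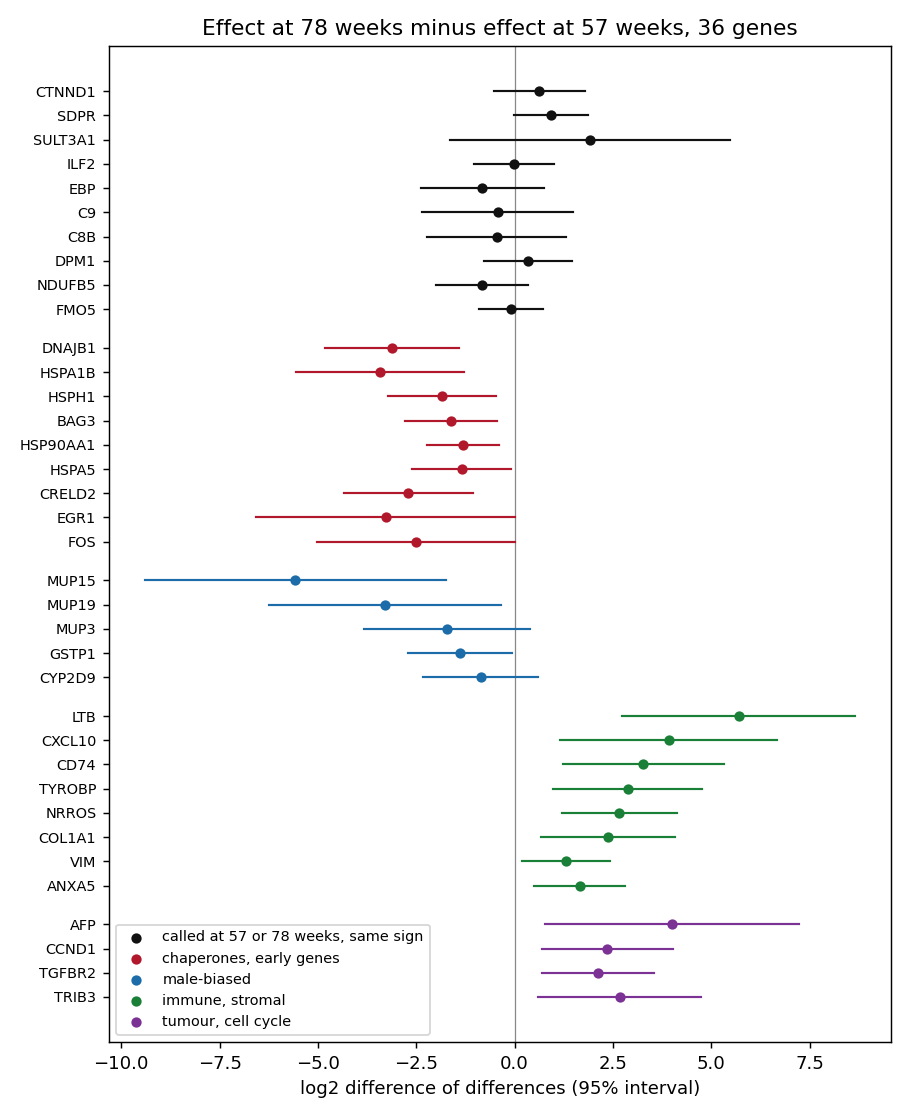
Withdrawal difference (log2, with 95% interval) of named genes. LTB lies at 5.70 and MUP15 at -5.57, and no gene passes edgeR's adjusted test with all 21 mice, while DESeq2 calls LTB.

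The last question was whether withdrawal after 57 weeks differed from withdrawal after shorter dosing. In series S2 the mice drank 3.5 g/L DCA for 32 weeks and were sampled then or after 46 further weeks of water, and in series S1 for 10 weeks and were sampled then or after 22 weeks. Each has its own difference against controls of the same ages. In edgeR's test the S3 difference less the S2 difference gave 0 genes (0%), with 98 at an unadjusted p under 0.05, and less the S1 difference 0 (0%), with 226. DESeq2 called 0 against S2 and 2 against S1, ENPP6 (7.65) and TCTN1 (5.58), and limma voom called 0 in both. The S2 comparison uses the Control-78 mice on both sides, and the lengths of dosing and of withdrawal both differ.

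Against S2, RRM1, a subunit of ribonucleotide reductase, had the smallest p, with 1.99 ± 0.47 log2 and an adjusted p of 0.192. It was the 1 gene called without S2-78 mouse 43, S3-57 mouse 51 or Control-32 mouse 74. Against S1, ENPP6, a choline phosphodiesterase, was 8.26 ± 2.11 and TCTN1, a protein of the ciliary transition zone, 5.20 ± 1.38, neither called by edgeR. Over the alternatives ENPP6 ran from 1.89 to 9.35 and TCTN1 from 3.56 to 5.74. The S3 withdrawal difference alone was 0.81 ± 1.22 for ENPP6, 1.65 ± 0.95 for TCTN1 and 0.66 ± 0.38 for RRM1, none of them called. Without Control-10 mouse 68 the count was 3. AFP was 4.16 ± 2.05 against S2 and 2.25 ± 2.31 against S1, and DNAJB1 was 1.07 ± 1.04 and -3.26 ± 1.16, none of which passed.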

How the data were processed

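TempO-Seq reads of 78 liver libraries were aligned by the authors with Bowtie in Partek 10.0.22.0524 to mm10 and deposited as raw counts for 2755 genes. The deposited table of normalized signal holds 68 libraries and 2205 genes. The authors made it with DESeq2 from each count plus 1.

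Raw counts of the 2205 genes were scaled by TMM and fitted in edgeR 4.0.16 (R 4.3.3) with 13 groups and the 68 libraries. Each p is from edgeR's quasi-likelihood test with Benjamini-Hochberg adjustment over 2205 genes. A gene was called at an adjusted p of 0.05 or less, with a fold change beyond 1.5 where 2 groups were compared and no such limit for differences of differences. Alternatives used DESeq2 1.42.0 and limma 3.58.1, other scalings, filters, covariates and libraries left out. Figures used Python 3.11.15 and matplotlib 3.10.9. The code was tested on simulated data.

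Named genes were SDPR, IRS1, CTNND1, EBP and GSTZ1, up to 10 genes each way called in the withdrawal difference and up to 3 per list, up to 5 called with 1 sign at both ages by the smaller fold change, and up to 5 called against S2 or S1. No gene came from the parts that use the difference. All others were chosen after their values were seen. The members and the 35 gene lists were chosen with earlier results of these data known. Positions are from GENCODE vM21 on GRCm38. The 10 libraries without normalized values were left out of the fit.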

Additional observations from a re-analysis of the deposited data

Results flagged for a closer look

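In 11 of 248 sets of 1 measure and 1 group (4.44%), a single mouse lay far from the others of its group. The measures were the 52 named genes and some values that are not single genes. All 11 were sets of a named gene, and their share of the named-gene sets alone is higher than 4.44%. Chance marks about 1 in 20 such sets.

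In S3-57, mouse 51 stood far above the others in CYP17A1 at 277 CPM and in CYP2A4 at 2227 CPM. Mouse 54 stood far above the others in CD74 at 7798 CPM and in CXCL10 at 534 CPM. Both mice were also high in pancreas markers, whose part was not tested.

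In S3-78, mouse 59 was far above the others in CXCL10 at 898 CPM, and mouse 55 far below in NDUFB5 at 28.6 CPM. In Control-57, mouse 83 was far below the others in VIM at 61.5 CPM and mouse 84 in CYP2D9 at 1855 CPM. In Control-78, mouse 85 was far below in C8B at 614 CPM, mouse 86 in LTB at 0 CPM, and mouse 90 far above in TRIB1 at 19277 CPM. In the withdrawal difference no named gene passed edgeR's quasi-likelihood test, and DESeq2 called LTB.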

How the results depend on the processing

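No paired analysis was possible because the groups share no replicate numbers. Of 100 values of named genes, RLE left 90 with their direction and side of the threshold, upper-quartile scaling 87, no filter 95, filterByExpr 100, DESeq2 97, limma voom 80, the total count as a covariate 73, the number of detected genes 96, a fit to the compared groups alone 78, and all deposited libraries 67. Leaving out the 3 pancreas-marker mice left 79 and leaving out the 4 LTB mice left 61, both chosen after seeing the data. Over 1512 values with 1 library left out, 1370 kept both, 123 no longer passed, 10 newly passed and 9 turned.

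Counts that moved by over 1.5 times were these, and the cause was not tested. The withdrawal difference had 1 gene with DESeq2, with or without its filter, and 15 without the pancreas-marker mice. At 57 weeks the count was 12 with all libraries, 82 in a fit to the compared groups alone, 222 and 214 with DESeq2, 223 with the total count as a covariate and 60 without the pancreas-marker mice. At 78 weeks it was 117 with the total count, 176 without the pancreas-marker mice and 23 without the LTB mice. The control change was 3 with RLE, 1 with upper-quartile scaling, 2 with all libraries, 0 with the compared groups alone, 19 with DESeq2, 0 with limma voom, 3 with the total count and 1 without the LTB mice. Against S2 the count was 1 with the number of detected genes, and against S1 it was 2 with DESeq2.

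With 1 library left out at a time, counts ran from 0 to 7 for the withdrawal difference, 55 to 184 at 57 weeks, 148 to 316 at 78 weeks, 0 to 15 for the controls, 0 to 1 against S2 and 0 to 3 against S1. S3-78 against S3-57 gave 0 throughout.

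Some values of the withdrawal difference changed sign. IRS1 was 0.075 with upper-quartile scaling, 0.073 with all libraries, 0.0089 without the pancreas-marker mice and 0.32 without the LTB mice, and DPM1 was -0.13 with all libraries. Without the LTB mice SULT3A1 was -1.73, C9 0.13, C8B 0.73, CYP17A1 -3.02 and AFP -0.24, and CYP17A1 at 78 weeks was -1.50. With 1 library left out IRS1 ran from -0.38 to 0.059, SULT3A1 from -2.10 to 6.82, DPM1 from -0.18 to 0.89, and CYP17A1 from -0.96 to 4.47. The control change of TRIB1 ran from -0.069 to 2.11.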

Other observations

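Further lists were read against all genes, of which 3.54% were called lower at 57 weeks and 7.48% lower at 78 weeks. Of 18 acute phase genes tested, 1 was called lower at 78 weeks and 0 at 57 weeks, with list medians of -0.20 and -0.80 log2. Of 28 genes of the NRF2 and glutathione list, 2 were called lower at 57 weeks, and 8 lower and 1 higher at 78 weeks. Of all genes 5.85% were called higher then. Of 18 PPARA targets and genes of fatty acid oxidation, 1 was called lower at 57 weeks and 3 at 78 weeks. Of 13 hepatic transporters, 1 was called lower at 57 weeks and 2 at 78 weeks. Of 4 erythroid markers, led by ALAS2, 1 was called lower at 78 weeks. Their summed level was 60.8 to 248 CPM in S3-78, below the Control-78 range of 420.4 to 912 CPM. Of 5 clock genes, 0 were called at either age.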
